A study of Zea mays with 6 samples.

Results

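The genes described here are 89 maize genes that were expressed at a moderate level in wild-type endosperm and were almost without reads in *zmnac128 zmnac130* endosperm. They were taken from the 44303 genes of the deposited tables by the values themselves. Both *zmnac128 zmnac130* libraries had to lie below 1 FPKM (fragments per kilobase of exon, scaled to the number of mapped fragments) with at least one of them above 0, and both wild-type libraries had to reach 5 FPKM with a mean below 50 FPKM. The 2 levels and the difference between the genotypes are therefore what selected these genes, and they are given below as a description with no test. What the selection did not use, such as their place in the gene order and the response of their neighbours, is set beside the 10107 genes of the same wild-type range. The agreement of replicates is set beside them too, but limits on both libraries of a genotype constrain it in part. Those 10107 genes share the wild-type limits and not the mutant limit.

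ZmNAC128 and ZmNAC130 are duplicate transcription factors of the plant-specific NAC family. They act in the endosperm during filling, when this tissue takes up sugars, amino acids and minerals from the mother plant and stores starch and zeins, the prolamin storage proteins of maize. Hormones that seeds make and break down during this phase, abscisic acid and gibberellin among them, accompany the passage to maturation.

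RNA-seq was made from endosperm at 16 days after pollination (DAP). The *zmnac128 zmnac130* group carried knockout alleles of both genes, made in the inbred KN5585 and crossed with the inbred B73. The wild-type group consisted of nontransgenic siblings from the same cross, and the kernels of both groups came from ears of equal age after genotyping. The labels give genotype and age only. The cross is that of the set from the later growing year of the study, whose tabulated expression values match these libraries. The same tabulation holds other values for the third sample of each genotype, which were not used here. RNA came from more than 3 endosperms, and nothing in the labels says which samples came from separate plants, so that the spread between samples may be technical in part. Endosperms of such a cross segregate KN5585 and B73 alleles throughout the genome. Where 1 stretch of a chromosome came more often from one parent in a group, this and the genotype cannot be told apart in these libraries.

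Each genotype had 3 labelled samples. Replicate 3 held the value of replicate 1 in all 44303 genes of both genotypes and was counted once with it, which left 2 libraries per genotype. The steps of the FPKM values gave 30696032 and 29312397 reads in genes for the *zmnac128 zmnac130* libraries (replicates 1 and 2), and 28478576 and 26317317 for the wild-type libraries. Zein genes identified by their description, 7 in number, summed to 20579 and 15173 FPKM in *zmnac128 zmnac130*, against 57564 and 56629 FPKM in the wild type. Endosperm RNA was thus abundant in both groups. The descriptions cover only genes that the study chose as changed, in part from these samples. Differences between the genotypes in the marker genes given here follow largely from that choice and are no independent check. A caleosin of oil bodies, common in embryo and aleurone, was at 17.0 and 15.6 FPKM in *zmnac128 zmnac130* and at 56.1 and 64.5 FPKM in the wild type. The basal transfer layer gene *betl3* was at 44.4 and 29.5 FPKM against 135 and 162 FPKM, and a photosystem II gene at 16.5 and 17.1 FPKM against 7.36 and 7.66 FPKM. Words for aleurone and pericarp markers matched 0 described genes. In these bulk samples, fewer cells of a type and less RNA per cell cannot be told apart, and the part of either in the values below was not tested. No source used here links *ZmNAC128* or *ZmNAC130* to an ID of the tables, and the labels were not checked on their own transcripts.

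Over the 89 genes, the *zmnac128 zmnac130* libraries had medians of 0.229 FPKM (replicate 1, range 0 to 0.990) and 0.258 FPKM (replicate 2, range 0 to 0.982). The wild-type libraries had medians of 8.76 FPKM (replicate 1, range 5.05 to 46.6) and 10.1 FPKM (replicate 2, range 5.13 to 50.8). The genotypes overlapped in no gene, as the limits require, and over all genes tested both mutant libraries lay below both wild-type libraries in 37.2%. The lower wild-type library of a gene was at least 5.18 times its higher mutant library, with a median of 35.7 times.

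**Figure D1:**
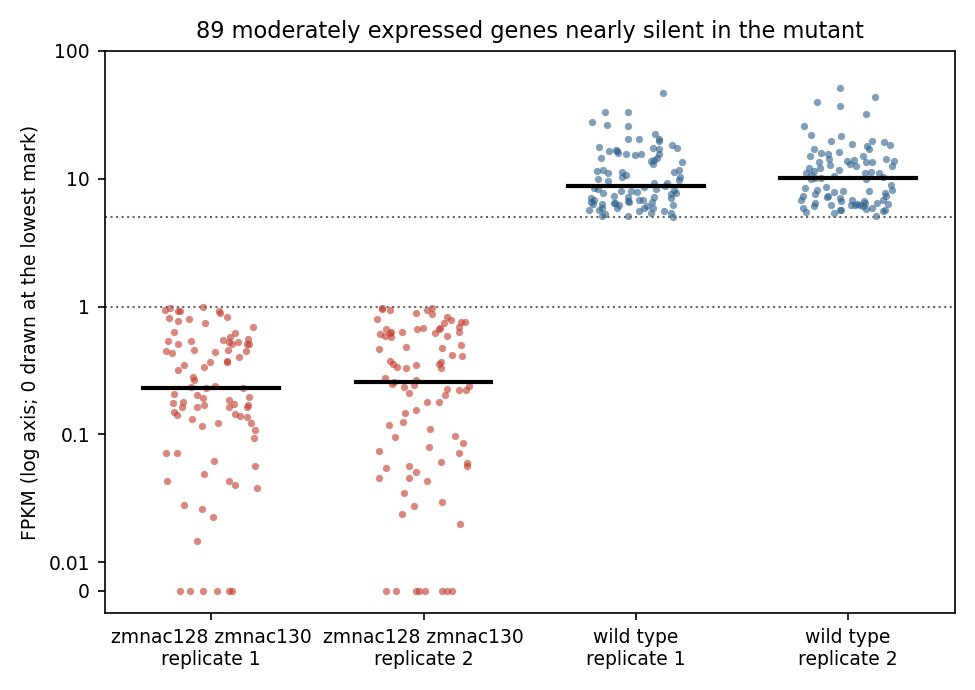
FPKM of the 89 genes in each library on a log axis, *zmnac128 zmnac130* (red) left of the wild type (blue), 1 point per gene, with black lines at the medians (0.229, 0.258, 8.76 and 10.1 FPKM) and dotted lines at the limits of 1 and 5 FPKM. The 6 and 8 points at the lowest mark are genes at 0 in replicate 1 or in replicate 2 of the mutant.

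In reads, the 89 genes together had 1219 and 1247 reads in *zmnac128 zmnac130*, against 37726 and 36111 in the wild type. A gene had a median of 15 reads over both mutant libraries (range 1 to 166), and of 600 reads over both wild-type libraries (range 73 to 6588). For 15 genes the mutant total was 3 reads or fewer, and for 37 it was 10 or fewer. The wild-type levels thus rest on many reads and the mutant levels of these genes on few.

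The mutant mean was below 0.5 FPKM in 61 of the 89 genes, below 0.25 FPKM in 45 and below 0.1 FPKM in 21. As a percentage of the wild-type mean, the residual level had a median of 2.07% and ran between 0.108% and 17.4%. It lay under 1% in 23 genes, under 5% in 63 and under 10% in 81, which leaves 8 genes with a higher residual share. The wild-type mean was below 10 FPKM in 47 genes, or 52.8% of them, against 34.1% of all genes of the wild-type range, and it reached 20 FPKM in 8 and 30 FPKM in 4. The fixed mutant limit of 1 FPKM asks for a smaller fold drop of a weak gene than of a strong one. The selection itself thus favours weak genes, and nothing is read from these shares. The residual level hardly followed the wild-type level, with a Pearson correlation of −0.18 on the log2 scale and a Spearman correlation of −0.25 across the 89 genes, which share their libraries and are not independent replicates.

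The limit of 1 FPKM fell in a sparsely filled stretch between the bulk of genes and the genes without reads. Of the genes of the wild-type range with any mutant read, 34 had their higher mutant library between 0.5 and 1 FPKM and 68 between 1 and 2 FPKM, whereas 2431 lay between 5 and 10 FPKM. At the low end, 40 genes stayed below 0.25 FPKM in both mutant libraries. Another 55 genes of the same wild-type range were at 0 in both mutant libraries and are not counted among the 89. Together these 144 genes made 1.42% of the wild-type range, of which the 89 made 0.881%. With the genotypes exchanged, 77 genes met the same limits, near 0 in the wild type and moderate in *zmnac128 zmnac130*, or 0.787% of the 9782 genes of the mutant range, and 26 were at 0 in both wild-type libraries. Near-silence of a moderately expressed gene was thus seen in both directions, and the 2 shares were not tested against each other.

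**Figure D2:**
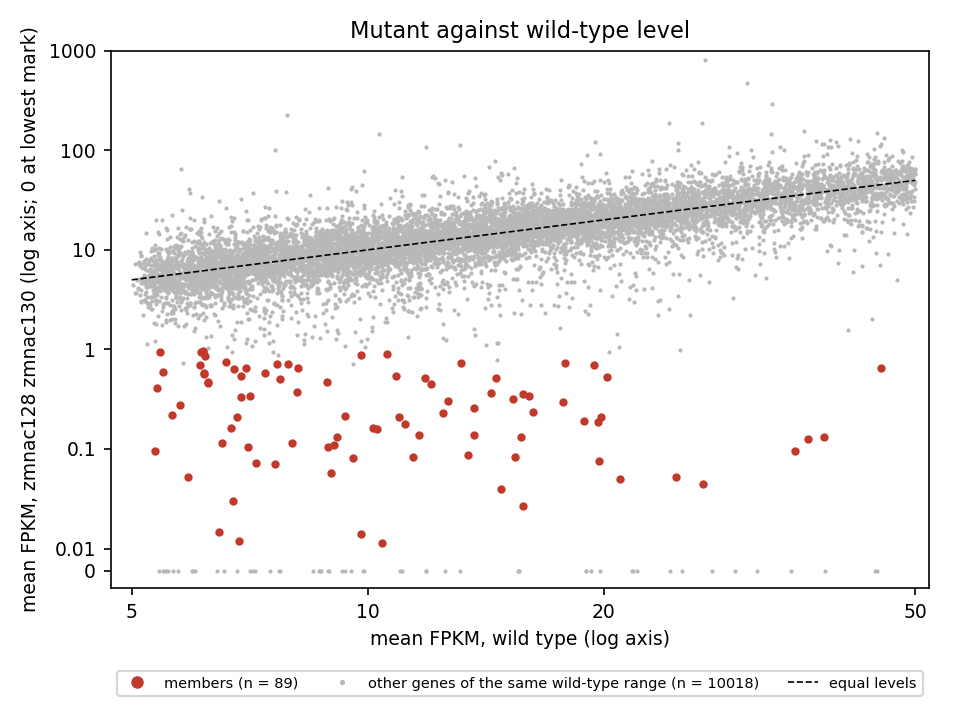
Mean FPKM in *zmnac128 zmnac130* (vertical log axis) against the mean in the wild type (horizontal log axis) for the 10107 genes of the wild-type range, the 89 genes in red and the other 10018 in grey, with a dashed line at equal levels. Most genes lie along the line, the red points lie below 1 FPKM, and the 55 grey points at the lowest mark had no mutant read.

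The genes next to the limits were as follows. Zm00001eb005740, inside, was at 0.990 and 0.897 FPKM in *zmnac128 zmnac130* and at 5.13 and 5.72 FPKM in the wild type. Zm00001eb153360, outside by its mutant value, was at 1.02 and 0.551 FPKM in *zmnac128 zmnac130* and at 11.2 and 18.1 FPKM in the wild type, a larger difference than that of the gene inside. Zm00001eb113150 was the weakest gene inside, at 0.170 and 0.0198 FPKM in *zmnac128 zmnac130* against 5.05 and 5.66 FPKM in the wild type. Zm00001eb424490 was left out by 1 wild-type library, with 0.740 and 0.258 FPKM in *zmnac128 zmnac130* against 4.99 and 6.62 FPKM in the wild type. Above the upper limit stood 3 genes that met all other conditions. They were Zm00001eb136780, Zm00001eb181260 and Zm00001eb355410, with wild-type means of 72.7, 112 and 366 FPKM.

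All 89 genes passed the filter on low values (a mean of at least 1 FPKM over the 4 libraries) and all 89 were called lower in *zmnac128 zmnac130* by limma on log2(FPKM + 1), where a call needed a log2 change of more than 1 in size together with an adjusted p under 0.05. Over all genes tested, 7.18% were called lower (1371 of 19082) and 6.43% higher (1227). The selection used the same contrast, so nothing is read from the count. The log2 fold changes of the 89 genes had a median of −3.09 and ran between −5.06 and −1.72, beside a median of 0.01 over all genes tested. Adding 1 FPKM to values this low shortens them: the log2 ratio of the mean FPKM values had a median of −5.60 and ran between −9.85 and −2.52.

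The sources used here give a description for 6 of the 89 genes, and the other 83 are known by ID only. The 6 are the only ones among the 113 downregulated genes of the study's list of highly and differentially expressed genes (hdEGs), 5.31% of that list and 6.74% of the 89, and 0 of the 130 upregulated hdEGs are among them. Of the 10107 genes of the wild-type range, 52 were among the downregulated hdEGs. That list was drawn in part from these samples and is not independent evidence of direction. It required a change in every set of the study's transcriptomes and a high level in the KN5585 background. A gene can therefore be lower in these libraries and absent from it. The descriptions of the 6 genes name a pair of hormone-inactivating enzymes, a cell wall enzyme, a peptide receptor and a protein repressed by ultraviolet-B light. The sixth has no function in its description and is counted as a transporter by the study's own list.

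A pair of them encode enzymes that inactivate plant hormones, and they had the highest and the fourth highest wild-type means of the 89 genes. Zm00001eb176720, described as abscisic acid 8'-hydroxylase 3-like, belongs to the enzymes that start the breakdown of abscisic acid, the hormone of seed maturation and dormancy. It was at 0.527 and 0.783 FPKM in *zmnac128 zmnac130* (43 and 61 reads), against 46.6 and 43.7 FPKM in the wild type (3529 and 3059 reads). It had the most wild-type reads of the 89 genes, and its reads in *zmnac128 zmnac130*, scaled to depth, made 1.44% of those in the wild type (95% exact interval for counting error 1.18% to 1.75%). RefSeq places it, as LOC103653298, on chromosome 4 from 60544798 to 60550346 of Zm-B73-REFERENCE-NAM-5.0. Its limma log2 fold change of −4.81 had a standard error of 0.13.

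Zm00001eb282550, described as gibberellin 2-oxidase, belongs to the enzymes that inactivate gibberellins, hormones of growth and germination. It was at 0.192 and 0 FPKM in *zmnac128 zmnac130*, against 33.5 and 36.8 FPKM in the wild type. All of its 10 mutant reads were in replicate 1, and a count of 0 in replicate 2 allows up to 0.0605 FPKM at 3 reads. The wild-type libraries held 1614 and 1638 reads. The pooled mutant reads, scaled to depth, were 0.281% of those in the wild type (95% exact interval 0.135% to 0.517%), the lowest share of the 6 described genes. RefSeq places it, as LOC100285694, on chromosome 6 from 136646569 to 136651660.

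Of the 5 described genes found by words for hormones or for the jasmonate-related TIFY family, 4 were called lower and 1 higher. Only these 2 enzymes met the limits, so larger amounts left in the others follow from the selection. TIFY 11c, of a family of jasmonate signalling repressors (Zm00001eb223580), kept 17.4 and 12.3 FPKM in *zmnac128 zmnac130* against 59.6 and 50.01 FPKM in the wild type. Zm00001eb338800 encodes an enzyme of the GH3 family, which joins hormones to amino acids. Its accession is described as an indole-3-acetic acid-amido synthetase, whereas the study calls it *ZmGH3.10* and ties it to jasmonate conjugation. It kept 3.39 and 2.81 FPKM against 10.6 and 11.9 FPKM. Both were called lower, with 27.1% and 27.5% of the wild-type mean remaining. Indole-3-acetate beta-glucosyltransferase, which attaches glucose to auxin (Zm00001eb053690), was called higher, at 149 and 167 FPKM in *zmnac128 zmnac130* and 63.9 and 74.6 FPKM in the wild type. The list reaches described hdEGs only, so other hormone genes were not counted. Since hdEGs were chosen as changed, in part from these samples, the calls follow largely from that choice.

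Zm00001eb231160, described as a probable polygalacturonase, belongs to the enzymes that cut pectin in cell walls. It was at 0.365 and 0.676 FPKM in *zmnac128 zmnac130* (26 and 46 reads), against 15.4 and 13.8 FPKM in the wild type (1017 and 840 reads). Both mutant libraries held reads, and the share was 3.54% (95% exact interval 2.76% to 4.48%). Of 9 described genes with a cell wall word, 3 were called lower and 4 higher. The other 2 lower ones lay above the mutant limit. Pectinesterase QRT1 (Zm00001eb327190) had 4.71 and 5.67 FPKM in *zmnac128 zmnac130* against 34.9 and 29.7 FPKM in the wild type. An extensin-like protein (Zm00001eb197960) had 3.60 and 2.83 FPKM against 13.4 and 13.4 FPKM.

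Zm00001eb323920 is listed among the study's transporter genes as a putative transporter of phosphate ions and has no other description. It was at 0.691 and 0.761 FPKM in *zmnac128 zmnac130* (39 and 41 reads), against 17.4 and 18.3 FPKM in the wild type (913 and 883 reads). The replicates lay close in both genotypes, and the share was 4.07% (95% exact interval 3.21% to 5.09%). It is the only one of the 18 genes of that transporter list among the 89, and 9 of the 18 lay in the wild-type range. The phosphate transporter described as PHO1-2 (Zm00001eb191650) lay in that range but above the mutant limit. It was at 7.35 and 4.06 FPKM in *zmnac128 zmnac130* against 16.1 and 20.2 FPKM in the wild type.

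The last pair of described genes sat close under the limit of 1 FPKM. Zm00001eb234200, described as a phytosulfokine receptor, belongs to the receptor kinases that bind a small sulfated peptide hormone, known from carrot and Arabidopsis. It was at 0.980 and 0.953 FPKM in *zmnac128 zmnac130*, against 6.81 and 5.51 FPKM in the wild type, and had the highest residual mean of the 89 genes. Zm00001eb330460, described as ultraviolet-B-repressible protein (LOC100281930, chromosome 7 from 181737641 to 181738223), was at 0.920 and 0.867 FPKM in *zmnac128 zmnac130*, against 8.58 and 12.6 FPKM in the wild type. Their shares in reads were 15.6% (95% exact interval 12.9% to 18.8%) and 8.53% (5.95% to 11.9%). These 2 genes were low but measurable in every mutant library, with 18 to 70 reads each.

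**Figure D3:**
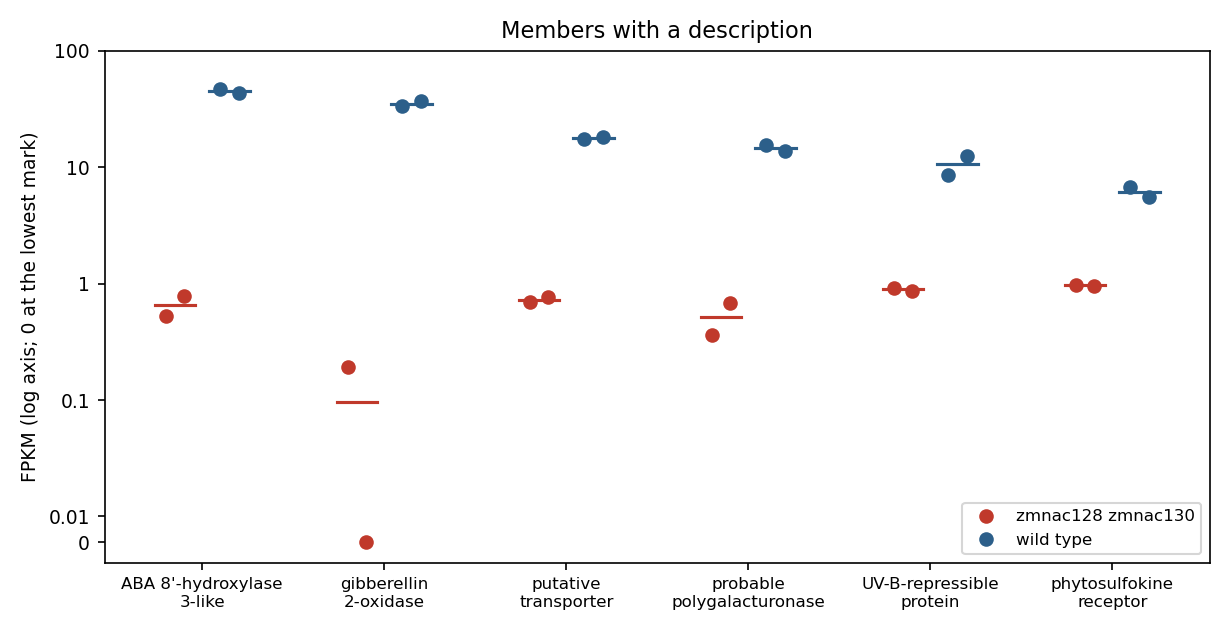
FPKM of the 6 described genes on a log axis, in order of the wild-type mean, *zmnac128 zmnac130* (red) left of the wild type (blue), 1 point per library and a line at the mean of 2 libraries. All mutant points lie below 1 FPKM, and gibberellin 2-oxidase was at 0 in replicate 2.

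Words for 13 kinds of function were searched in the descriptions of the hdEGs, and 3 of the 13 lists held any of the 89 genes (hormones, cell wall and signalling). The other 10, storage proteins and transcription factors among them, held none. Of the 10 genes of the study's nutrient reservoir list, 0 lay in the wild-type range, so the limits shut them out beforehand. How many genes of the other lists could have met the limits is not given, and nothing is read from their absence. All 8 described storage genes were called lower, and the zeins among them kept the sums given above. The hdEGs were chosen as changed, in part from these samples, with 113 downregulated and 130 upregulated. Counts of calls within the word lists follow largely from that choice and are not read as results. Of the 10 described signalling genes, 5 were called lower and 5 higher, and the phytosulfokine receptor was the only one among the 89. No list can be counted over the 83 genes without a description.

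Among the genes known by ID only, the highest wild-type levels belonged to Zm00001eb276520 and Zm00001eb377320. Zm00001eb276520 was at 0 and 0.267 FPKM in *zmnac128 zmnac130* (0 and 2 reads), against 25.6 and 50.8 FPKM in the wild type (187 and 342 reads). Zm00001eb377320 was at 0 and 0.2499 FPKM in *zmnac128 zmnac130* (0 and 2 reads), against 33.1 and 39.9 FPKM in the wild type (257 and 287 reads). Both are short genes, 256 and 273 bases as read from the FPKM steps, so few reads stand behind a high FPKM and a count of 0 still allows 0.382 and 0.358 FPKM. Also among the 10 highest were Zm00001eb254440, at 0.581 and 0.478 FPKM in *zmnac128 zmnac130* against 22.3 and 18.1 FPKM in the wild type, and Zm00001eb273350, at 0.151 and 0 FPKM against 17.6 and 21.9 FPKM.

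The weakest genes in the wild type kept unequal residual levels. Zm00001eb102770 was at 0.400 and 0.419 FPKM in *zmnac128 zmnac130*, against 5.63 and 5.13 FPKM in the wild type. Zm00001eb126180 was at 0.507 and 0.690 FPKM in *zmnac128 zmnac130*, against 5.41 and 5.55 FPKM in the wild type. Zm00001eb352380 was at 0.0710 and 0.372 FPKM in *zmnac128 zmnac130*, against 5.13 and 6.13 FPKM in the wild type, from 1 and 5 reads against 67 and 74.

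Sharper residual values came from genes with more wild-type reads than Zm00001eb276520 and Zm00001eb377320. Zm00001eb070630 had 1 read in each mutant library (0.0433 and 0.0453 FPKM), against 598 and 509 reads in the wild type (27.9 and 25.7 FPKM). Zm00001eb154780 was at 0.0434 and 0.0606 FPKM in *zmnac128 zmnac130*, against 17.4 and 32.04 FPKM in the wild type, with 3 and 4 reads against 1117 and 1897. Zm00001eb066960 was at 0.0487 and 0.0510 FPKM in *zmnac128 zmnac130*, against 20.5 and 21.4 FPKM in the wild type. Scaled to depth, the mutant reads of these 3 genes were 0.165%, 0.212% and 0.237% of those in the wild type, with upper 95% bounds of 0.597%, 0.437% and 0.609%.

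The lowest mutant means were those of 5 genes with 1 or 2 mutant reads in all. Zm00001eb295810 had 1 and 0 reads in *zmnac128 zmnac130* against 325 and 492 in the wild type, where it reached 7.90 and 12.9 FPKM. Zm00001eb385580 and Zm00001eb109020 had 0 and 1 reads and Zm00001eb068850 had 1 and 0. Zm00001eb374980 had 1 read in each mutant library, against 549 and 526 in the wild type. For these genes the share is known only as an interval, for example 0.112% with exact 95% bounds of 0.00283% and 0.624% in Zm00001eb295810. A difference in residual level between any 2 of them was not detectable at this depth.

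At the other end, 5 genes had mutant means of 0.894 to 0.967 FPKM, the phytosulfokine receptor and the ultraviolet-B-repressible protein among them. Zm00001eb005740 had the largest residual share, 17.4% (95% exact interval 14.7% to 20.6%), from 89 and 77 reads in *zmnac128 zmnac130* against 428 and 441 in the wild type. Zm00001eb074210 was at 0.922 and 0.945 FPKM in *zmnac128 zmnac130*, against 5.86 and 6.47 FPKM in the wild type. Zm00001eb253110 was at 0.884 and 0.982 FPKM against 5.91 and 6.35 FPKM. Zm00001eb005740 and Zm00001eb295810 had the largest and the smallest residual share of the 89, from 166 mutant reads and 1 mutant read. They were picked as extremes and their intervals cover counting error only. They describe the span of the set, and their difference was not tested.

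The genes were short. The length that 1 read implies, the smallest that turns the FPKM of all 4 libraries into whole reads, had a median of 1149 bases over the 89 genes, against 1998 bases over the wild-type range. It was 480 bases over the 55 genes at 0 in both mutant libraries and 1307 bases over the 77 genes with the genotypes exchanged. Such a length can be a fraction of the true one where the 4 read counts share a divisor, which is likelier at low counts. Among the 89 genes, length and residual level were nearly unrelated (Spearman correlation 0.10).

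Between replicates, the mutant values of the 89 genes followed each other loosely. Of the 89 genes, 14 were at 0 in one mutant library, 6 in replicate 1 and 8 in replicate 2, with 1 to 10 reads in the other library (median 2). In the 75 genes above 0 in both, the higher mutant value was a median of 1.36 times the lower. It was under 1.5 times in 48 genes and above 2 times in 17. Zm00001eb113150 had 9 reads in replicate 1 and 1 in replicate 2. The mutant replicates showed no common direction, replicate 2 being higher in 49 genes (55.1%), against 53.0% of the wild-type range. Across the 89 genes the Spearman correlation of the mutant replicates was 0.73 and the Pearson correlation 0.54 on the log2 scale with 0.01 FPKM added, against 0.97 for both over the wild-type range, whose mutant levels cover a wider span.

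In the wild type, where reads were plentiful, the replicates of these genes also differed more often than those of the range. The higher wild-type value was above 1.5 times the lower in 10 of the 89 genes (11.2%), against 1.66% of the genes of the range. The share was 8.51% against 1.92% where the wild-type mean was below 10 FPKM, and 14.3% (6 of 42) against 1.53% from 10 FPKM upwards. A wider spread between the wild-type libraries was thus present in low and high genes of the set alike. No test was made of it.

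The 5 genes with the widest wild-type spread show how it looks. Zm00001eb383700 was at 0.618 and 0.832 FPKM in *zmnac128 zmnac130* (7 and 9 reads), against 20.5 and 5.87 FPKM in the wild type (215 and 57 reads), a ratio of 3.49 and the largest adjusted p of the set (0.00608, limma). Zm00001eb019980 was at 0.279 and 0.146 FPKM in *zmnac128 zmnac130* and at 5.94 and 12.8 FPKM in the wild type. Zm00001eb062250 was at 0.165 and 0.258 FPKM in *zmnac128 zmnac130* and at 26.1 and 13.6 FPKM in the wild type. The remaining pair were Zm00001eb276520, given above, and Zm00001eb187410, at 0.637 and 0.667 FPKM in *zmnac128 zmnac130* and at 5.72 and 10.6 FPKM in the wild type. Replicate 1 was the higher wild-type library in 2 of these 5 genes and replicate 2 in 3. Over the 89 genes wild-type replicate 2 was higher in 50 (56.2%), against 65.8% of the range.

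**Figure D4:**
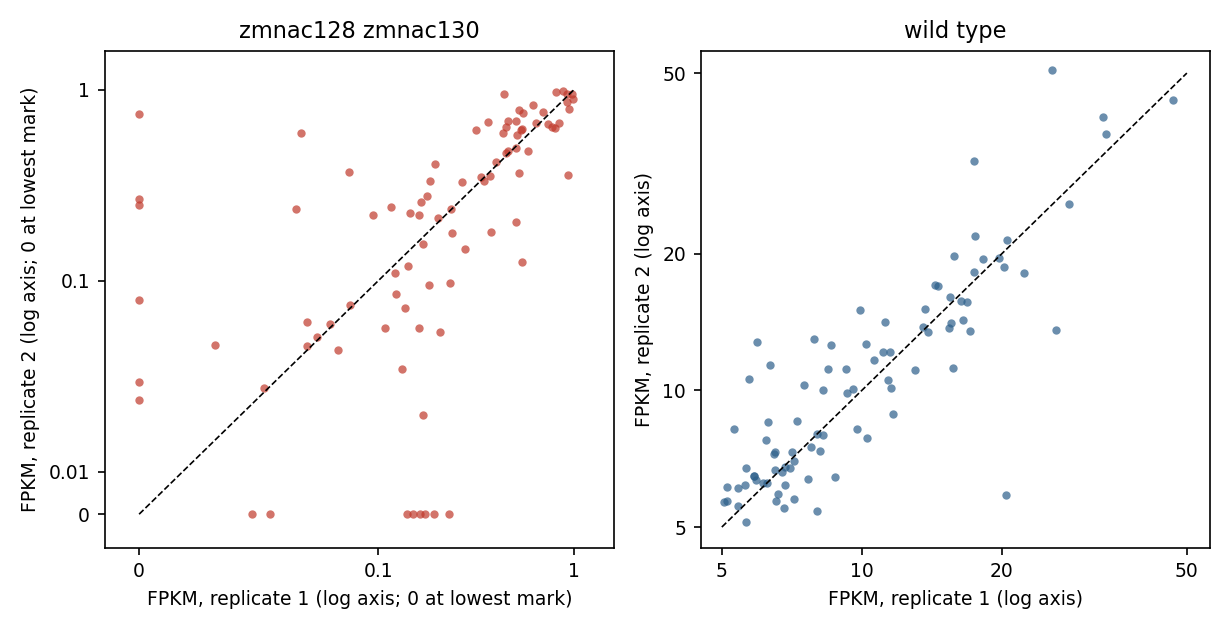
Replicate 2 against replicate 1 in FPKM on log axes for the 89 genes, *zmnac128 zmnac130* left and wild type right, with dashed lines at equal values. The mutant points scatter most at low values, with 14 genes at 0 in one library, and the wild-type point farthest from its line is Zm00001eb383700 at 20.5 and 5.87 FPKM.

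The last 6 digits of the IDs follow the order of genes along the chromosomes, so that the place of each gene in the table is a place in the genome. In 45 windows of 1000 consecutive genes, 15 windows held none of the 89 genes and 9 windows held 1. At the other end, 9 windows held 4 or more, and these held 52 of the 89 genes (58.4%) but 21.4% of the genes of the wild-type range. The genes were thus unevenly spread, also relative to the genes that could have met the limits in the wild type. No chance test was made of this.

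The fullest window, IDs 380010 to 390000 on chromosome 9, held 9 of the 89 genes, or 5.14% of its 175 genes of the wild-type range, against 0.881% in the genome as a whole. Their wild-type means ran between 6.18 and 19.6 FPKM and their mutant means between 0.0119 and 0.725 FPKM. Without these 9, 14.5% of the 332 other genes tested in the window were called lower (48) and 6.02% higher (20). The median log2 fold change of these 332 genes was −0.16, and 0 genes of the window met the limits with the genotypes exchanged. Most of the other genes of the window were thus not called in either direction, and no test of the stretch was made.

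On chromosome 2, IDs 70010 to 80000 held 7 of the 89 genes among 231 genes of the range (3.03%), and 8 genes at 0 in both mutant libraries. Here 13.3% of the 458 other genes tested were called lower and 8.08% higher. The window before it, IDs 60010 to 70000, also held 7, but 7.25% of its other genes were called lower. Full windows thus differed in the share of lower calls among their other genes. Taken over the 9 windows with 4 or more, 10.01% of the 4064 other genes tested were called lower and 6.74% higher, against 5.86% and 6.38% of the 14929 other genes tested in the remaining 36 windows. Those windows were picked by their count of the 89 genes.

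**Figure D5:**
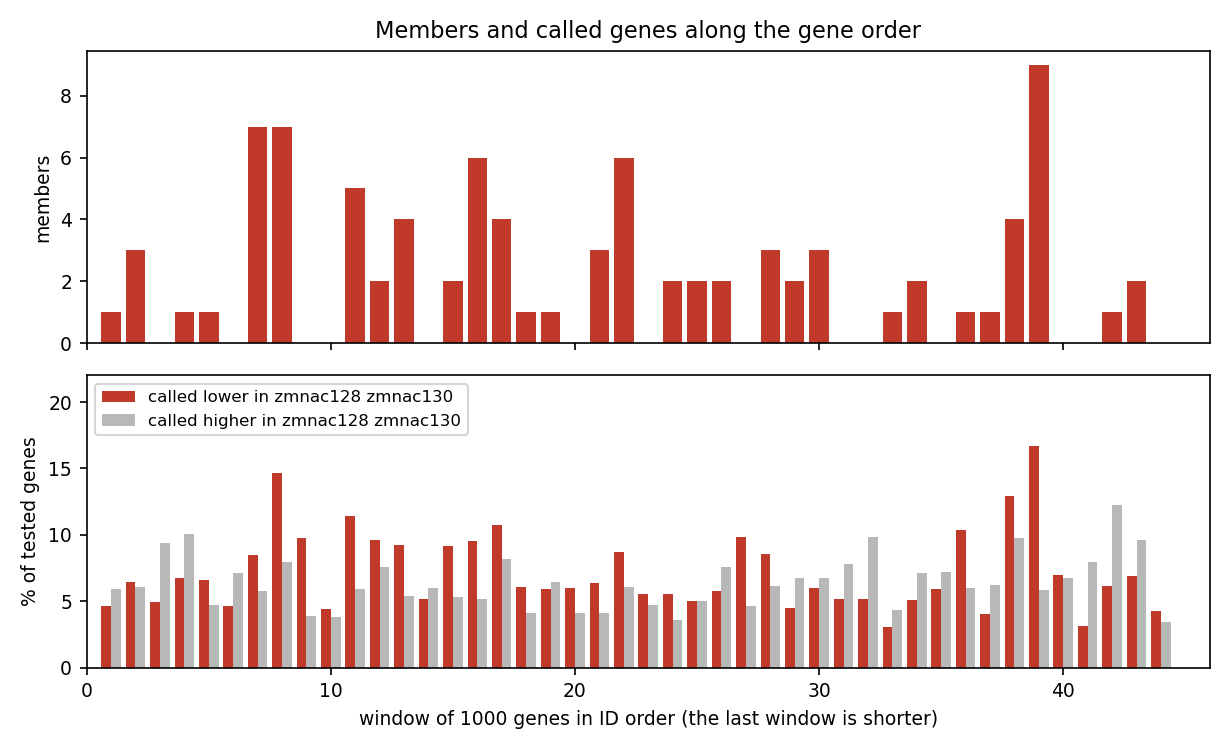
Upper panel, number of the 89 genes in each of 45 windows of 1000 genes in ID order. Lower panel, percentage of tested genes called lower (red) and higher (grey) in *zmnac128 zmnac130* in the same windows, without bars for the last window, where 9 genes were tested. Window 39, IDs 380010 to 390000, is highest in both panels, with 9 genes and 16.7% called lower. The lower panel includes the 89 genes, all called lower by their selection, and without its 9 genes window 39 had 14.5% called lower.

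Placed between RefSeq-matched genes of one chromosome on both sides, 78 of the 89 genes could be given a chromosome. Chromosome 9 held 12, or 3.06% of its placed genes of the range, chromosome 2 held 16 (1.52%) and chromosome 3 held 12 (1.24%). Chromosome 1, with the most genes of the range, held 8 (0.549%), and chromosomes 7, 8 and 10 held 2, 2 and 1.

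At close range, 19 of the 89 genes (21.3%) lay in 8 groups whose members were at most 20 genes apart, and 70 lay alone. Of the groups, 6 were pairs. Zm00001eb384020 and Zm00001eb384030 on chromosome 9, named after their values were seen, were direct neighbours in the table, at 0.506 and 0.204 FPKM in *zmnac128 zmnac130* against 14.6 and 17.0 FPKM in the wild type, and at 0.162 and 0.221 FPKM against 18.2 and 19.5 FPKM. No description is given for either, and whether they are copies of each other was not tested.

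The larger group of the chromosome 9 stretch spanned 31 genes and held Zm00001eb385280, Zm00001eb385420 and Zm00001eb385580. They were at 0.145 and 0.228 FPKM, 0.203 and 0.212 FPKM, and 0 and 0.0238 FPKM in *zmnac128 zmnac130*. In the wild type they were at 19.7 and 19.6 FPKM, 11.4 and 10.6 FPKM, and 6.46 and 7.23 FPKM. All 3 had wild-type replicates within 1.12 times of each other, and their residual shares ran between 0.174% and 1.89%.

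The largest group spanned 32 genes of chromosome 2 and held 4 of the 89. Zm00001eb070580 was at 0.137 and 0.0716 FPKM in *zmnac128 zmnac130*, against 7.52 and 10.3 FPKM in the wild type. Zm00001eb070630, given above, had 1 read in each mutant library. Zm00001eb070680 was at 0.835 and 0.666 FPKM against 6.52 and 6.68 FPKM, and Zm00001eb070890 at 0.335 and 0.351 FPKM against 7.15 and 6.9996 FPKM. Residual levels inside this group thus ran between 0.165% and 11.4% of the wild-type mean, so that neighbours in the same stretch kept very unequal shares.

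A single gene on chromosome 4, Zm00001eb166930, stood directly before an alpha zein (Zm00001eb166940) and a putative storage protein (Zm00001eb166950) in the gene order, and is named here after its values were seen. It was at 0.0379 and 0.238 FPKM in *zmnac128 zmnac130*, against 13.6 and 13.8 FPKM in the wild type.

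The nearest tested genes around the 89 genes, 10 on each side and the 89 themselves left out, were called lower more often than elsewhere. Of 1543 such neighbours, each counted once, 10.2% were called lower and 7.52% higher, against 7.18% and 6.43% of all genes tested, the 89 included. Over the neighbours of the other genes of the wild-type range, counted the same way but with repeats, 6.66% were called lower and 6.37% higher, beside 10.8% and 7.35% around the 89 genes. The median log2 fold change of the 1543 neighbours was −0.03, so that most neighbours differed little between the genotypes. The parental origin of these stretches in each library was not tested.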

How the data were processed

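Expression came as FPKM values computed by the authors, 44303 genes in 6 columns of 2 deposited tables. HISAT2, named in the submitters' processing notes, mapped the paired reads to the B73 reference (Zm-B73-REFERENCE-NAM-5.0), KN5585 alleles included, and a counting tool not given in the sources used here made the values. How mapping to one parent moved them was not tested. Replicates 1 and 2 of each genotype were used, since replicate 3 repeats replicate 1. The genes and all lists were chosen with earlier results of these data known. The 19082 genes averaging 1 FPKM or more were compared on log2(FPKM + 1) with limma 3.58.1 in R 4.3.3 (lmFit, eBayes with trend, two-sided, Benjamini-Hochberg adjustment over all of them), a procedure tested on simulated data. With 2 libraries per genotype, p-values rest on 2 residual and 4.04 prior degrees of freedom. Reads and lengths were recovered from the FPKM steps, whole within 0.002 reads in all 33589 genes above 0. Intervals and the floor of 3 reads cover counting error only, and reads are not independent molecules. Chromosomes were assigned between 173 hdEGs matched to RefSeq by accession (176 matched, 3 out of order left out). Named genes are those in the study's lists, the 10 highest and 5 lowest in the wild type, the 5 highest and 5 lowest in the mutant, the 5 with the widest wild-type ratio, and groups of 3 or more neighbours. Promoter and protein sequences were not used here. Other steps used Python 3.11.15, pandas 2.3.3 and scipy 1.17.1. Alternatives were other pseudocounts, filters, scalings, limits and gaps, a replicate block, all 6 columns and leaving out each library; limma voom on recovered reads was added after the data were seen.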

Additional observations from a re-analysis of the deposited data

How the results depend on the processing

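The number of near-silent genes followed the limits. It was 319 with a wild-type minimum of 2 FPKM and 36 with a minimum of 10 FPKM, 55 with a mutant maximum of 0.5 FPKM and 157 with a maximum of 2 FPKM, and 144 with genes at 0 in both mutant libraries let in. TPM scaling, which raises all values, gave 112, of which 57 were among the 89, and leaving out 1 library gave between 94 and 115. Groups of neighbours held 30 genes with gaps of up to 50 genes and 13 with gaps of up to 10. All 89 genes stayed called lower in every alternative in which all were tested except the pseudocount of 10, where 38 were. With a filter at 10 FPKM, 10 of the 89 were tested and all 10 called. The median log2 fold change of the 89 was −5.13 with a pseudocount of 0.1, −0.91 with 10, −4.64 with the filter at 10 FPKM, −3.57 with TPM and −5.51 with limma voom on recovered reads, and without 1 library it lay between −3.17 and −3.09. Over all genes, 612 were called with a pseudocount of 10 and 936 with the filter at 10 FPKM, against 2598, and between 2153 and 2732 without 1 library. With a replicate block, 2632 genes and all 89 were called. Samples of one number did not deviate together (correlation −0.08), which shows no pairing by number but cannot exclude one. Of 451 values of the 34 named genes under the alternatives, 434 stayed on their side of the threshold and the other 17, with a pseudocount of 10, fell short of a 2-fold change. Only 2 libraries per genotype limit the spread that can be estimated, and mutant levels of a few reads limit any order among the lowest genes.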
